A study of Mus musculus with 6 samples.

Results

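The collagen, laminin and integrin genes encode the chains of the extracellular matrix and the receptors by which cells hold on to it. Members were the genes whose mouse symbol marks a collagen alpha chain, a laminin alpha, beta or gamma chain, or an integrin alpha or beta chain (numbered, or alpha v), with a mean of at least 1 FPKM (fragments per kilobase of transcript, scaled to the size of the library) over the 6 libraries. Of 17254 genes seen in any library, 75 had such a symbol, and 33 of these passed the level required, among 11717 genes that did. The 33 comprised 13 collagen, 5 laminin and 13 integrin genes, and 2 genes that carry an integrin's symbol but encode proteins that bind integrins or other partners, Itgb1bp1 and Itgb3bp. Of the 42 genes below the level, 15 had at most 3 counts in every library. A further 5 coding genes that fit the symbols (Col19a1, Col26a1, Col6a6, Col9a1 and Itgb2l) were listed in no library.

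RNA-seq was performed on mouse neural stem and progenitor cells (NSPCs) held for 48 h as mock-treated control, with 5 µM paraquat (PQ, which cycles with oxygen and generates superoxide) or with 5 mM N-acetylcysteine (NAC, a thiol antioxidant), with 2 libraries per group. All cells came from a neonate-derived immortalized NSPC culture lacking Ink/Arf, described in the methods as a mixed population, and were grown in N2 media with EGF and bFGF. The labels give the genotype, as Ink/Ark knockout, and the strain, C57BL/6, only for control 1 and PQ 1. Those libraries carry an Illumina label and the other 4, among them both NAC libraries, a BGISEQ-500 label, so that label and group are partly confounded for NAC. Expected counts summed to between 9680436 and 10698241 per library. The paper reports that the sequencing was replicated, but neither it nor the labels say that the libraries of a group came from separate cultures, so p-values measure only the spread between these libraries, which may be technical.

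Collagens are triple helices of 3 alpha chains that form fibrils, networks or short bridging filaments. Laminins are trimers of an alpha, a beta and a gamma chain, and with network-forming collagens they build basement membranes. Integrins are pairs of an alpha and a beta chain that bind these proteins outside the cell and the actin cytoskeleton inside it, and in the brain they anchor neural stem cells to the laminin-rich matrix of their niche.

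The NSPC label was checked against marker genes. Of 12 neural stem and progenitor markers, 10 had a mean of at least 1 FPKM, led by Vim at 2073 FPKM, whereas Prom1 and Hes5 stayed between 0 and 0.16 FPKM in every library. The summed level of these markers was 3463 and 3531 FPKM in control, 3794 and 3856 in PQ, and 2748 and 2671 in NAC. The oligodendrocyte lineage list was led by Olig1 at 429 FPKM and summed to 652 and 753 FPKM in control, 768 and 667 in PQ, and 816 and 926 in NAC, although Sox10 was between 0 and 0.04 FPKM.

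The 6 astrocyte markers summed to 136 and 132 FPKM in control, 165 and 176 in PQ, and 113 and 112 in NAC, which is almost all Gja1 (mean of 127 FPKM). With NAC, Gja1 fell by 0.43 on the log2 scale whereas Gfap, Aqp4 and Slc1a2 were higher, with log2 fold changes of 1.23, 1.76 and 0.65 (adjusted p of 0.00217, 0.000315, 1.36e-05 and 0.000200, edgeR's quasi-likelihood test). Aqp4 was at 0.79 and 0.70 FPKM in control and passed the level only through NAC, so it had to differ. Of the 6 neuron markers only Map2 had a mean of at least 1 FPKM, and Rbfox3 was listed in no library. The list summed to 38.0 and 35.7 FPKM in control, 33.5 and 34.7 in PQ, and 65.3 and 58.5 in NAC, which is almost all Map2. Tubb3, below the level by its mean, was not highest in NAC as Map2 was, at 2.38 and 1.30 FPKM in control, 0.72 and 0.47 in PQ, and 0.32 and 0.44 in NAC.

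Markers of cell types that often supply collagen were mostly low. Of 9 endothelial markers 7 were seen, none reached 1 FPKM, and Esam led them at a mean of 0.357 FPKM. The list summed to 0.71 and 0.77 FPKM in control, 0.53 and 0.84 in PQ, and 0.64 and 1.03 in NAC, and Cldn5 and Erg were in no library. Among 14 mural cell and fibroblast markers Pdgfrb was at 0 FPKM in 5 libraries and 0.02 in PQ 2, and Lum between 0 and 0.09 FPKM. This list summed to 115 and 103 FPKM in control, 106 and 104 in PQ, and 71.6 and 73.5 in NAC, mostly from the transcription factor gene Prrx1 (mean of 82.5 FPKM), which fell by 0.76 on the log2 scale with NAC (adjusted p = 1.21e-05, edgeR's quasi-likelihood test). Some low markers had more counts in treated libraries: Myh11 had 5.02 and 9.03 in control, 69.2 and 23.1 in PQ, and 20.1 and 61.2 in NAC. Dcn had 5 and 1 counts in control, 24 and 8 in PQ, and 6 and 11 in NAC, and Acta2 3.01 and 1 in control, 21.1 and 10.0 in PQ, and 10.0 and 13.0 in NAC. These were below the level tested, and replicates differed widely. Others did not have more, such as Rgs5 and Kcnj8 with at most 6 counts in any library, and the tested marker Notch3 passed in PQ (log2 fold change of 0.45, adjusted p = 0.0369 by edgeR's quasi-likelihood test). The 12 microglia and macrophage markers summed to 3.18 and 2.99 FPKM in control, 5.82 and 5.03 in PQ, and 5.83 and 4.60 in NAC, led by P2ry12 at a mean of 2.25 FPKM (log2 fold change of 1.18 with NAC, adjusted p = 0.00329 by the same test), and Tyrobp, C1qc and Spi1 were in no library. Levels of neural, mural and microglia marker lists thus differed between groups, each led by 1 or a few genes, and their part in the matrix results below was not tested. In these bulk libraries, fewer cells of a type and less RNA per cell cannot be told apart.

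Each family was made up of a few abundant chains. Itgb1, the beta chain shared by most integrins for collagen and laminin, supplied between 53.8 and 58.5% of the integrin family's summed FPKM in every library. Among laminins, Lamc1 and Lamb1 each supplied between 31.6 and 41.4% of the summed FPKM. The collagens were more even, with Col4a5 highest by mean at 47.2 FPKM, followed by Col4a6 at 34.8 and Col11a1 at 34.3 FPKM. Just inside the level required lay Col9a3 at a mean of 1.73 FPKM and Itga2 at 1.86 FPKM, and just outside it Itga2b at 0.687 and Col6a2 at 0.582 FPKM. Col9a3 was the 1 member with a control mean under 1 FPKM and passed through its higher level in the treated groups, so it had to differ and its change supports nothing about the family. Counts behind a chain gene ranged from 18 in a library for Col9a3 to 14807 for Itgb1.

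**Figure D1:**
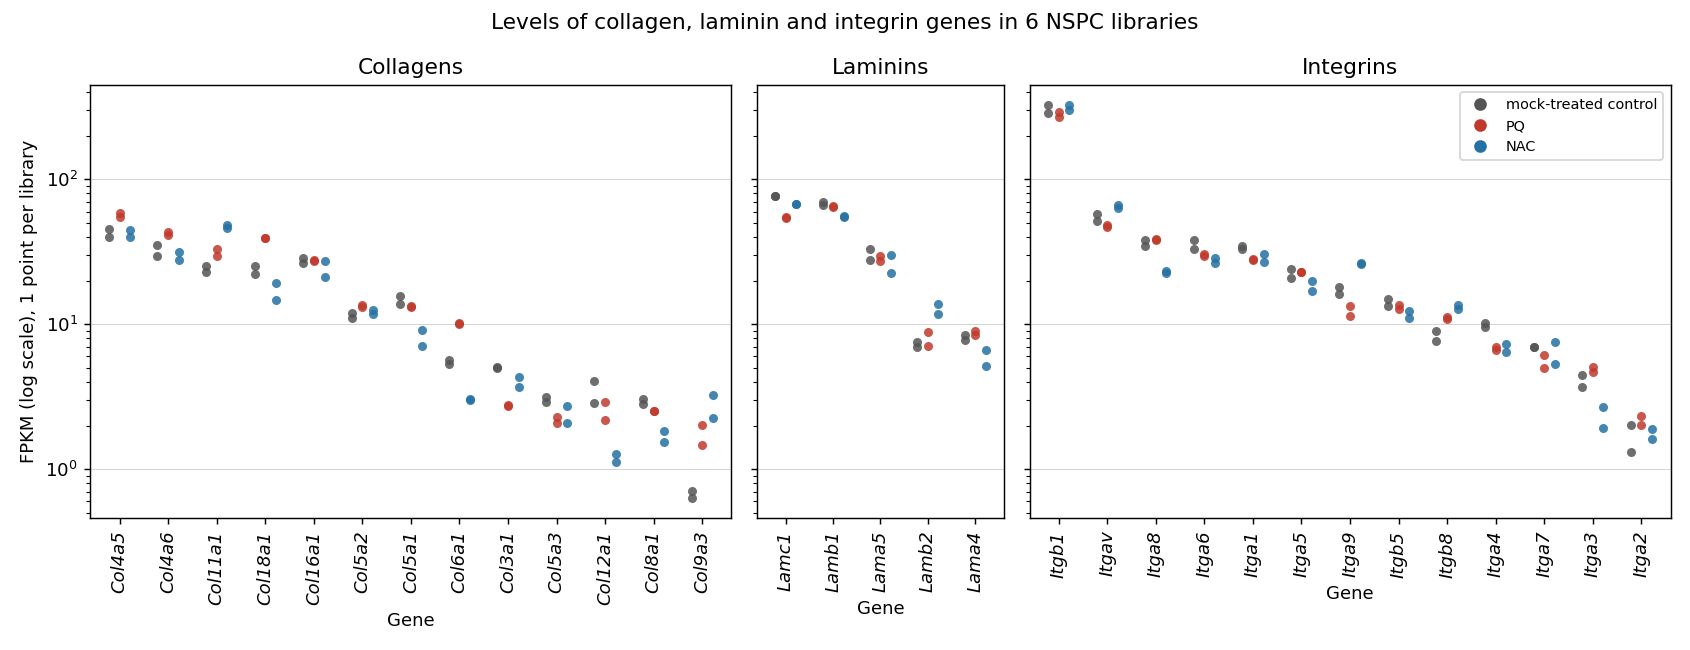
FPKM on a log scale of the 31 collagen, laminin and integrin chain genes, with 1 point per library and colours for mock-treated control, PQ and NAC. Itgb1 lies above all other chain genes in each library, and Col9a3 is the gene with both control libraries under 1 FPKM.

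Summed over its members, the collagen family stood at 185 and 209 FPKM in control, 247 and 245 in PQ, and 183 and 208 in NAC. Both PQ libraries were above the other 4. The laminin sum was 189 and 193 FPKM in control, 166 and 163 in PQ, and 163 and 173 in NAC, with both treated groups below control. The integrin sum was 566 and 537 FPKM in control, 493 and 514 in PQ, and 560 and 532 in NAC, so that the NAC libraries overlapped with control and the PQ libraries lay below both. These sums weigh abundant chains most and were not tested.

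**Figure D2:**
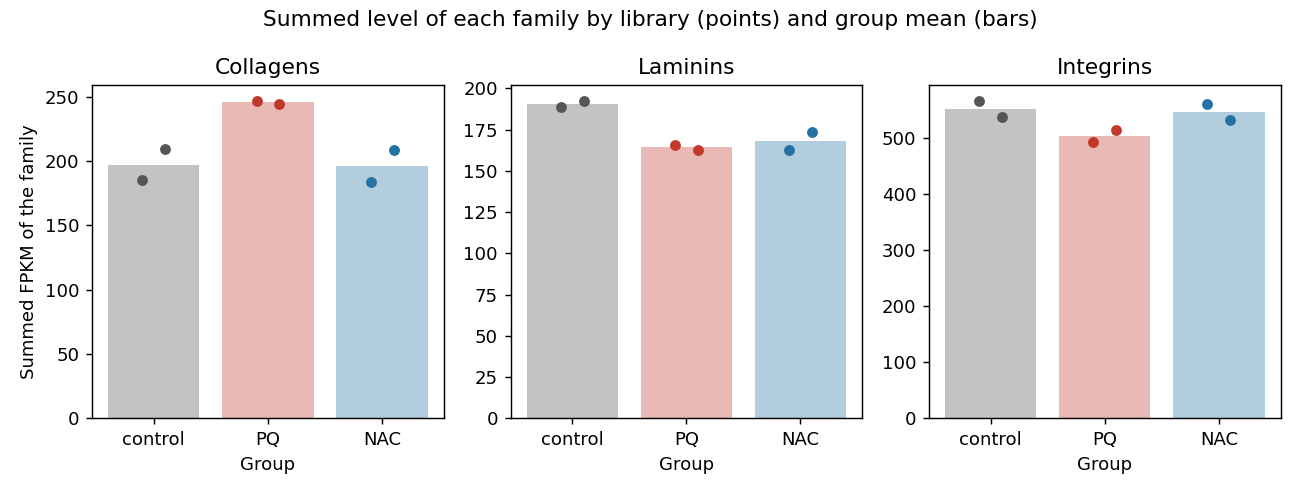
Summed FPKM of the 13 collagen, 5 laminin and 13 integrin genes in each library (points) with the group mean (bars). The collagen sum of 247 and 245 FPKM in PQ lies above the other libraries, and the laminin sum is highest in control.

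Of the 33 members, 13 passed an adjusted p of 0.05 in PQ against control by edgeR's quasi-likelihood test, 39.4% of them, beside 19.2% of all 11717 genes tested. The higher ones numbered 7 (21.2%, beside 9.76% of all genes), and 6 were lower (18.2%, beside 9.45%). Leaving out Col9a3, which had to differ, 6 of 32 members were higher (18.8%) and 6 lower. Of the higher genes collagens then held 5, laminins 0 and integrins 1, and of the lower ones 2, 1 and 3. The count of 13 fell to 7 without PQ 1 and to 8 without PQ 2. Among the BGISEQ-500 libraries alone, with 1 control and 1 PQ library and the spread taken from NAC, it was 6, an alternative added after the data were seen. The fall was mostly in the higher genes, of which 3 were left without PQ 1, 4 without PQ 2, 4 without control 1 and 2 among the BGISEQ-500 libraries, beside 4, 4, 5 and 4 lower ones. Fewer of all genes were called there too: 3.87% higher and 3.52% lower without PQ 1, beside 9.09 and 12.1% of members. Without PQ 2 these shares were 6.79 and 6.07% of all genes beside 12.1% of members for each, without control 1 7.31 and 7.30% beside 12.1 and 15.2%, and among the BGISEQ-500 libraries 4.45 and 4.03% beside 6.06 and 12.1%. Members had longer transcripts than other genes, with a median of 5624 bases against 2805, and longer transcripts collect more counts at the same FPKM. Their part in these counts was not tested.

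The median log2 fold change in PQ against control was 0.18 for collagens, -0.11 for laminins and -0.16 for integrins, beside 0.00 for all genes tested. Without Col9a3 the collagen median was 0.08, and among the BGISEQ-500 libraries that of all 13 collagens was 0.11. The laminin median was -0.07 without control 1 and 0.00 without control 2, and the integrin median -0.09 without PQ 1 and -0.10 among the BGISEQ-500 libraries. These medians are small and moved with single libraries or members.

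In NAC against control, 18 of 33 members passed the same test (54.5%, beside 18.7% of all genes). Of these, 5 were higher (15.2%, beside 9.01%) and 13 were lower (39.4%, beside 9.64%). Without Col9a3, 4 of 32 were higher (12.5%) and 13 lower (40.6%). The lower genes were 5 collagens, 2 laminins and 6 integrins, and the higher ones, again without Col9a3, 1, 1 and 2. Median log2 fold changes were -0.37 for collagens (-0.38 without Col9a3), -0.25 for laminins and -0.29 for integrins, beside 0.00 for all genes tested. Without NAC 1 the collagen median was -0.20.

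PQ against NAC also gave 18 members (54.5%, beside 31.6% of all genes), of which 12 were higher in PQ (36.4%, beside 16.0%) and 6 lower (18.2%, beside 15.7%). The medians were 0.44 for collagens, 0.12 for laminins and 0.02 for integrins. The laminin median turned to -0.06 without NAC 1 and was 0.22 without NAC 2. The integrin median, near 0, turned to -0.03 without PQ 2 and was 0.11 without NAC 1. The comparisons share libraries, so their counts are not independent. Side by side, Col6a1 and Col18a1 were higher with PQ and lower with NAC, Itga9 was lower with PQ and higher with NAC, Col11a1, Col9a3 and Itgb8 were higher with both, and Itga1 and Itga4 lower with both. A further 10 members passed in neither comparison with control, among them Itgb1, Itgav, Lama5, Col16a1 and both binding protein genes.

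**Figure D3:**
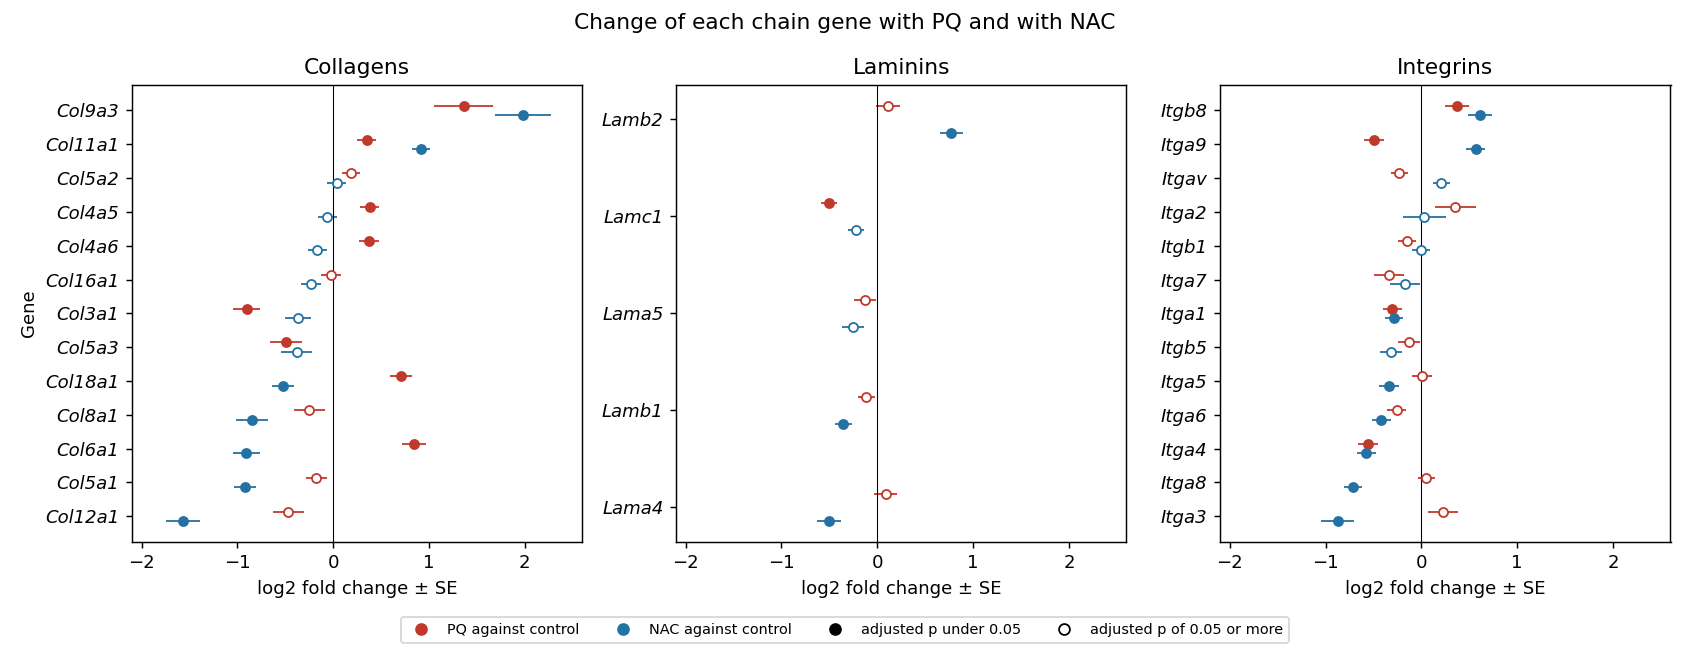
Log2 fold change with its standard error for each chain gene in PQ against control (red) and NAC against control (blue), both computed with the same control libraries. Filled points had an adjusted p under 0.05. Col6a1 and Col18a1 lie right of 0 for PQ and left of it for NAC, and Itga9 the other way round.

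The collagen IV genes encode the chains of the basement membrane network and lie in head-to-head pairs. Col4a5 (gene ID 12830, chromosome X, 141475370 to 141689236 in GRCm38.p6) was at 39.8 and 45.7 FPKM in control, 58.2 and 54.8 in PQ, and 39.8 and 44.9 in NAC. Its neighbour Col4a6 (gene ID 94216, chromosome X, 141165403 to 141474095) was at 29.4 and 35.1 FPKM in control, 43.4 and 41.6 in PQ, and 27.7 and 31.8 in NAC. For both genes the PQ libraries lay above the other 4, and the NAC and control libraries overlapped. The log2 fold change in PQ against control was 0.38 ± 0.10 (SE) for Col4a5 (edgeR's quasi-likelihood test, adjusted p = 0.00932) and 0.37 ± 0.10 for Col4a6 (adjusted p = 0.0149). Both calls were lost without control 1, without PQ 1 and among the BGISEQ-500 libraries, and that of Col4a6 also without PQ 2. In NAC against control neither passed (adjusted p of 0.729 and 0.298 by the same test). The ratio of Col4a5 to Col4a6 FPKM lay between 1.30 and 1.44 in all 6 libraries.

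The pair that makes the most widespread collagen IV network, Col4a1 and Col4a2, was barely seen. Col4a1 was between 0.25 and 0.47 FPKM and Col4a2 between 0.11 and 0.44 FPKM, from at most 31 and 28 counts in a library. Col4a5 and Col4a6 together exceeded them by between 78.6 and 175 times in FPKM. Of the remaining pair, Col4a3 had at most 1 count in any library and Col4a4 at most 6.26, with fractional counts in all 6 libraries.

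Since Col4a5 and Col4a6 point away from each other across 1.3 kb and moved together, the stretches upstream of their starts are shown, from 250 to 51 bases before the transcript start that the RefSeq promoter table on GRCm38.p6 uses. These starts, 141475419 for Col4a5 and 141474076 for Col4a6, lie slightly inside the outer ends of the genes given above. Capitals mark matches to 6 motifs, each searched on both strands. The promoter elements were the GC box, with the letters GGGCGG, then the box named for its letters CCAAT, and the TATA box, taken here as TATAAA. The others were sites of factor families: AP-1, with the letters TGANTCA, then forkhead proteins, with GTAAACA, and the core of the antioxidant response element, with TGACNNNGC. Col4a5 is given from the plus strand, chrX:141475169-141475368, and Col4a6 from the minus strand, chrX:141474127-141474326.
Col4a5: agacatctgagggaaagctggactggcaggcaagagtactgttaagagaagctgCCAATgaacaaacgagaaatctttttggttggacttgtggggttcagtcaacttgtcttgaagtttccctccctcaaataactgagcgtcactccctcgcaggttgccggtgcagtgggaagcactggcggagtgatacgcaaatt
Col4a6: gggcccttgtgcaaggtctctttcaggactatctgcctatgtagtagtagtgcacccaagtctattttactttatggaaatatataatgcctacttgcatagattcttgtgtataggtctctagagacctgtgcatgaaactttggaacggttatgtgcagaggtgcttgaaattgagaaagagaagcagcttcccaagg
The Col4a5 window held 1 CCAAT box, which 28.4% of all 32851 promoter windows of this length hold, and the Col4a6 window held none of the 6 motifs. Their GC content was 49.5 and 42.5%, beside a median of 51.5% over all windows. A match is a string of letters and not a bound site.

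Collagen VI forms beaded filaments next to basement membranes, and collagen XVIII is a basement membrane proteoglycan whose end fragment is endostatin. Col6a1 (gene ID 12833, chromosome 10, 76708792 to 76726044) stood at 5.33 and 5.70 FPKM in control, 10.2 and 10.1 in PQ, and 3.07 and 2.99 in NAC. The 3 groups did not overlap, with PQ highest and NAC lowest. Its log2 fold change was 0.85 ± 0.13 (SE) in PQ against control (edgeR's quasi-likelihood test, adjusted p = 0.000141) and -0.91 ± 0.14 in NAC against control (adjusted p = 0.000124). Between PQ and NAC it was 1.76 ± 0.13 (adjusted p = 2.73e-08 by the same test). Col18a1 (gene ID 12822, chromosome 10, 77052178 to 77166530) had the same order of groups, at 22.1 and 25.1 FPKM in control, 39.2 and 39.4 in PQ, and 14.7 and 19.2 in NAC. It rose by 0.71 ± 0.11 on the log2 scale with PQ (adjusted p = 0.000248 by the quasi-likelihood test) and fell by 0.52 ± 0.12 with NAC (adjusted p = 0.00309). Without NAC 1 the latter was -0.35 and no longer passed.

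Col6a1 and Col18a1 lie 326 kb apart on chromosome 10, between Col6a2 and the integrin gene Itgb2, which were both below the level required. Col6a2 had 16 and 22 counts in control, 45 and 33 in PQ, and 8 and 8 in NAC. Itgb2, a leukocyte integrin chain, had 7 and 15 counts in control, 36 and 25 in PQ, and 3 and 10 in NAC. Both had more counts in PQ than in control, and Col6a2 also fewer in NAC. From the first base of Col6a2 to the last of Itgb2 the stretch spans 0.97 Mb and holds 11 genes that were seen, 8 of them tested. Of these 8, Col6a1 and Col18a1 were higher in PQ and Slc19a1, a folate carrier gene beside Col18a1, was lower, at 6.11 and 5.41 FPKM in control and 3.66 and 2.29 in PQ. Its log2 fold change was -0.98 (adjusted p = 0.00241, edgeR's quasi-likelihood test). The other 5 tested genes did not pass in any comparison. The stretch was chosen after the values of its collagens had been seen.

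The upstream stretches of Col6a1 and Col18a1 are shown because both genes rose with PQ and fell with NAC. Col6a1 is given from 250 to 131 bases before its start on the minus strand, chr10:76726175-76726294, and Col18a1 from 250 to 51 bases before the outer of its 2 starts, also on the minus strand, chr10:77166581-77166780, with capitals for the same 6 motifs.
Col6a1: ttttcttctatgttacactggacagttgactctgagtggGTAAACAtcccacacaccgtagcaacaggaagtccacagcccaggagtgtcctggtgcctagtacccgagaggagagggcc
Col18a1: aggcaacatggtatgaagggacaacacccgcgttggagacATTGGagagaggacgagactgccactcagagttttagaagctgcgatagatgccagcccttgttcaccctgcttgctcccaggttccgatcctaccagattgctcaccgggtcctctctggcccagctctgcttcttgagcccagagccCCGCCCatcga
The capitals in Col6a1 are a forkhead site, found in 2.58% of all windows of 200 bases, and nearer its start, outside the stretch printed, an AP-1 site (TGACTCA, 90 to 84 bases before the start) is also present, as in 5.57% of all windows. Col18a1 held a CCAAT box and a GC box, each on the other strand, and shared no motif with Col6a1. Over the 26 members with a promoter in the table, which has 28 windows for them, 14 windows (50.0%) held a GC box against 24.6% of all windows. The antioxidant response element core was in 1 of the 28 windows, that of Itga9, and in 7.66% of all. These shares describe letters and were not tested.

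Col11a1, Col9a3 and Col16a1 encode chains of cartilage-type and fibril-associated collagens. Col11a1 (gene ID 12814) was at 23.1 and 25.3 FPKM in control, 29.6 and 33.2 in PQ, and 46.4 and 48.0 in NAC. Groups did not overlap, and NAC was highest. The log2 fold change was 0.92 ± 0.10 (SE) with NAC (adjusted p = 1.80e-06, edgeR's quasi-likelihood test) and 0.35 ± 0.10 with PQ (adjusted p = 0.0162), and the latter was lost without control 1, without PQ 2 and among the BGISEQ-500 libraries. With this change Col11a1 went from between 12.1 and 12.5% of the collagen sum in control to 25.3 and 23.1% in NAC. Col9a3, the member that passed through its treated libraries, was at 0.71 and 0.63 FPKM in control, 2.02 and 1.48 in PQ, and 2.26 and 3.25 in NAC. Its log2 fold changes were 1.36 ± 0.31 with PQ and 1.98 ± 0.29 with NAC (adjusted p of 0.00472 and 6.91e-05 by the same test), and on the log2(FPKM + 1) scale, which understates low genes, they were 0.71 and 1.16. The PQ call of Col9a3 was lost without PQ 1 and among the BGISEQ-500 libraries. Col16a1 was at 26.3 and 28.6 FPKM in control, 27.6 and 27.5 in PQ, and 21.3 and 27.1 in NAC, and passed in no comparison.

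Among the fibril collagens, Col3a1 was lower with PQ and Col5a1 with NAC. Col3a1 (gene ID 12825), the chain of the fibril collagen III, was at 4.97 and 5.11 FPKM in control, 2.76 and 2.72 in PQ, and 4.31 and 3.72 in NAC. It fell by 0.90 ± 0.14 (SE) on the log2 scale with PQ (adjusted p = 0.000218 by edgeR's quasi-likelihood test), whereas the value for NAC was -0.37 ± 0.13 (adjusted p = 0.0628). Its neighbour on chromosome 1, Col5a2, 24.6 kb away, was at most at 13.6 FPKM and passed in no comparison. Col5a1 (gene ID 12831), which starts collagen fibrils, was at 13.9 and 15.7 FPKM in control, 13.2 and 13.4 in PQ, and 7.10 and 9.10 in NAC. Both NAC libraries were below the other 4, with a log2 fold change of -0.92 ± 0.11 against control (adjusted p = 1.12e-05, the same test). Counts of Col5a1 were fractional in all 6 libraries, and those of Col8a1 below in 5, so part of their reads was shared with other genes.

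Col12a1 and Col8a1 were, like Col5a1, lower with NAC. Col12a1 (gene ID 12816), which sits on fibril surfaces, was at 2.85 and 4.07 FPKM in control, 2.18 and 2.92 in PQ, and 1.13 and 1.27 in NAC. The log2 fold change with NAC was -1.57 ± 0.18 (SE; adjusted p = 4.49e-06, edgeR's quasi-likelihood test), or -1.01 on the log2(FPKM + 1) scale. With PQ it was -0.47 ± 0.16 and did not pass (adjusted p = 0.0542 by the same test). Among alternatives that kept both control and both PQ libraries, the PQ value passed with the platform label as covariate (-0.46) and with no filter (-0.47). Its size moved with single libraries, from -0.19 without control 2 to -0.69 without control 1 and -0.71 without PQ 2. Col8a1 (gene ID 12837), a short-chain network collagen, was at 2.83 and 3.06 FPKM in control, 2.54 and 2.52 in PQ, and 1.83 and 1.55 in NAC. In NAC it was lower by a log2 fold change of -0.85 ± 0.17 (adjusted p = 0.00126 by the same test), or -0.55 on the log2(FPKM + 1) scale. Col5a3 was between 2.07 and 3.14 FPKM, and its call in PQ (log2 fold change of -0.49, adjusted p = 0.0410 by the same test) was lost in 7 of 14 alternatives.

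Among laminins, the gamma chain gene Lamc1 (gene ID 226519), part of nearly every laminin trimer, was at 76.2 and 76.5 FPKM in control, 55.2 and 54.3 in PQ, and 67.4 and 68.1 in NAC. Replicates differed by under 1 FPKM, and the groups did not overlap. Lamc1 fell by 0.51 ± 0.09 (SE) on the log2 scale with PQ (adjusted p = 0.000425, edgeR's quasi-likelihood test), and was at -0.22 ± 0.09 with NAC (adjusted p = 0.0814). Within the Illumina label the log2 difference between PQ 1 and control 1 was -0.51, and within the BGISEQ-500 label that between PQ 2 and control 2 was -0.50. Lamb1 (gene ID 16777), its most abundant beta partner, was at 70.1 and 66.9 FPKM in control, 64.0 and 65.0 in PQ, and 55.9 and 54.8 in NAC. With NAC it fell by 0.35 ± 0.09 (adjusted p = 0.00762 by the same test), a call lost without NAC 2 and among the BGISEQ-500 libraries. The ratio of Lamc1 to Lamb1 FPKM was 1.09 and 1.14 in control, 0.863 and 0.836 in PQ, and 1.21 and 1.24 in NAC.

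Lamb2 (gene ID 16779), the beta chain of synaptic and vascular basement membranes, was at 6.94 and 7.56 FPKM in control, 8.90 and 7.04 in PQ, and 11.7 and 13.9 in NAC. Both NAC libraries were above the other 4, with a log2 fold change of 0.77 ± 0.12 (SE) against control (adjusted p = 0.000147, edgeR's quasi-likelihood test). The ratio of Lamb1 to Lamb2 FPKM went from 10.1 and 8.84 in control to 4.78 and 3.94 in NAC, and was 7.19 and 9.23 in PQ. Of the alpha chains, Lama5 (gene ID 16776), found in most adult basement membranes, was at 27.7 and 33.1 FPKM in control, 29.4 and 27.2 in PQ, and 22.7 and 30.1 in NAC, and passed in no comparison. Lama4 (gene ID 16775), a chain of vessel walls and other mesenchymal matrix, was at 7.80 and 8.37 FPKM in control, 8.48 and 9.00 in PQ, and 5.15 and 6.66 in NAC. It fell by 0.50 ± 0.12 with NAC (adjusted p = 0.00720 by the same test), and this call was lost without NAC 1, where the value was -0.33, and with limma on log2 FPKM. Lama1 had at most 1 count in a library and Lamc3 at most 2, and Lama2, Lama3 and Lamb3 were all under 0.5 FPKM on average.

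**Figure D4:**
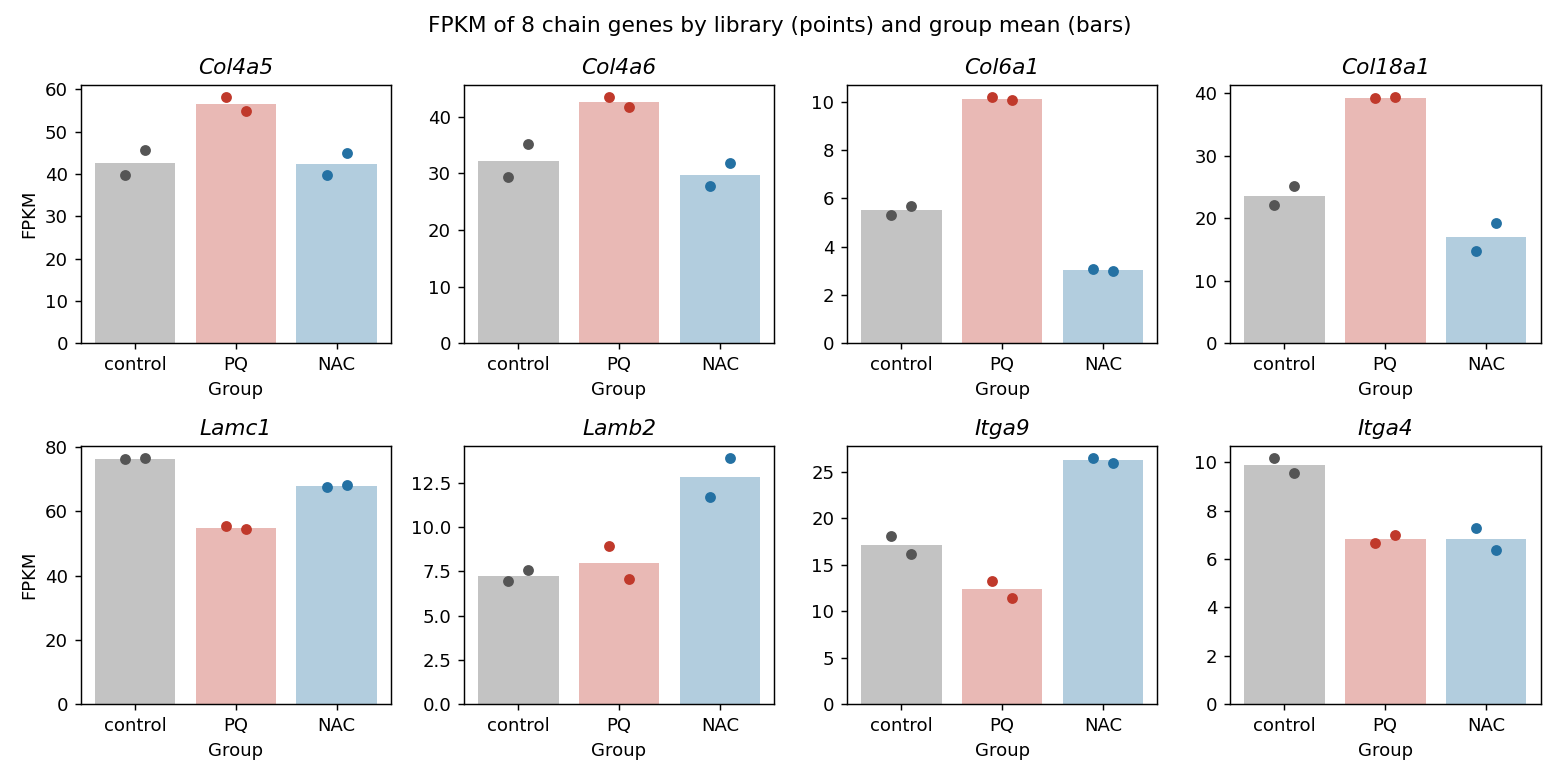
FPKM of 8 chain genes in each library (points) with the group mean (bars), each axis starting at 0. Col4a5 and Col4a6 are highest in PQ, Lamc1 lowest in PQ, Lamb2 and Itga9 highest in NAC, and Itga4 is lower in both treated groups than in control.

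The shared beta chain Itgb1 (gene ID 16412) was at 324 and 289 FPKM in control, 270 and 291 in PQ, and 328 and 302 in NAC. Groups overlapped, and the log2 fold change was -0.16 ± 0.09 (SE) with PQ and -0.01 ± 0.09 with NAC (adjusted p of 0.278 and 0.980, edgeR's quasi-likelihood test). Its alpha partners moved separately. Among those for collagen, Itga1 (gene ID 109700) was at 34.6 and 33.1 FPKM in control, 27.8 and 28.1 in PQ, and 30.3 and 27.0 in NAC. It was lower by a log2 fold change of -0.30 with PQ and -0.29 with NAC (adjusted p of 0.0331 and 0.0429 by the same test), calls that were lost in 7 and 9 of 14 alternatives. Its neighbour on chromosome 13, Itga2, was between 1.31 and 2.32 FPKM and passed in no comparison.

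Itga3, Itga6 and Itga7 encode the alpha chains of the laminin receptors. Itga6 (gene ID 16403), a stem cell surface marker, was at 38.2 and 32.9 FPKM in control, 29.7 and 30.8 in PQ, and 28.5 and 26.3 in NAC. It fell by 0.42 ± 0.10 (SE) on the log2 scale with NAC (adjusted p = 0.00708, edgeR's quasi-likelihood test). The call was lost without control 1 (log2 fold change of -0.30), without NAC 2 (-0.35) and among the BGISEQ-500 libraries (-0.30), with the direction kept. Itga3 (gene ID 16400) was at 3.70 and 4.50 FPKM in control, 5.10 and 4.69 in PQ, and 1.94 and 2.69 in NAC. Both NAC libraries were below the rest, with a log2 fold change of -0.87 ± 0.17 (adjusted p = 0.00119 by the same test). Itga7 was between 5.03 and 7.50 FPKM and passed in no comparison. Itgb4, the beta chain that pairs with Itga6 in hemidesmosomes, was below the level required. It had 12 and 9 counts in control, 10 and 11 in PQ, and 1 and 2 in NAC.

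Itgav, Itga5 and Itga8 encode alpha chains that bind the RGD tripeptide of fibronectin, osteopontin and related proteins. Itgav (gene ID 16410) was at 51.8 and 57.3 FPKM in control, 46.6 and 48.1 in PQ, and 66.6 and 63.4 in NAC. Control lay between the treated groups, and only PQ against NAC passed (log2 fold change of -0.44 ± 0.09 SE, adjusted p = 0.00112 by edgeR's quasi-likelihood test). Itga8 (gene ID 241226), the nephronectin receptor, was at 34.7 and 38.2 FPKM in control, 38.3 and 38.6 in PQ, and 23.2 and 22.7 in NAC. It fell by 0.71 ± 0.09 with NAC (adjusted p = 2.17e-05 by the same test), and was at 0.05 ± 0.09 with PQ. Itga8 over Itgav in FPKM was 0.670 and 0.665 in control, 0.822 and 0.802 in PQ, and 0.349 and 0.358 in NAC. Itga5 was between 16.8 and 24.2 FPKM, and its call in NAC (log2 fold change of -0.34, adjusted p = 0.0320 by the same test) was lost in 5 of 14 alternatives.

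Beta partners of Itgav differed too. Itgb8 (gene ID 320910), which with Itgav activates latent TGF-beta, was at 7.67 and 9.00 FPKM in control, 11.2 and 10.8 in PQ, and 13.5 and 12.8 in NAC. The log2 fold change was 0.61 ± 0.12 (SE) with NAC (adjusted p = 0.00139, edgeR's quasi-likelihood test). With PQ it was 0.37 ± 0.12 (adjusted p = 0.0420 by the same test), a call lost in 9 of 14 alternatives. Itgb5 was between 11.1 and 14.8 FPKM and passed in no comparison. Itgb3, below the level required, had 13.3 and 15 counts in control, 26.7 and 29.4 in PQ, and 5.26 and 8.04 in NAC.

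Itga4 and Itga9 form the subfamily of alpha chains that bind fibronectin's alternative segment, osteopontin, tenascin-C and VCAM1. Itga9 (gene ID 104099) was at 18.1 and 16.2 FPKM in control, 13.3 and 11.4 in PQ, and 26.5 and 26.0 in NAC. The groups did not overlap, with PQ lowest and NAC highest. Its log2 fold change was -0.50 ± 0.10 (SE) with PQ (edgeR's quasi-likelihood test, adjusted p = 0.00222) and 0.57 ± 0.10 with NAC (adjusted p = 0.000455), and the PQ call was lost without PQ 2. Itga4 (gene ID 16401) was at 10.2 and 9.56 FPKM in control, 6.65 and 7.00 in PQ, and 7.28 and 6.39 in NAC. It fell by 0.56 ± 0.10 with PQ and by 0.57 ± 0.10 with NAC (adjusted p of 0.000913 and 0.000540 by the same test). Itga9 over Itga4 in FPKM was 1.78 and 1.69 in control, 2.00 and 1.63 in PQ, and 3.64 and 4.07 in NAC. Both genes had fractional counts in all 6 libraries and so share part of their reads with other genes.

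The partners of these chains in the matrix were read from a list of 31 genes, of which 18 were tested. With PQ 5 were higher (27.8%, beside 9.76% of all genes) and 4 lower (22.2%, beside 9.45%), at a median log2 fold change of 0.08. With NAC 2 were higher (11.1%, beside 9.01%) and 7 lower (38.9%, beside 9.64%), at a median of -0.22. The counts of this and the next 4 lists were not tested. Spp1, which encodes the integrin ligand osteopontin, was at 408 and 400 FPKM in control, 817 and 860 in PQ, and 252 and 260 in NAC. Its log2 fold change was 1.03 with PQ and -0.70 with NAC (adjusted p of 5.08e-07 and 1.21e-05, edgeR's quasi-likelihood test). Tnc, the gene of tenascin-C, was at 72.9 and 77.6 FPKM in control, 101 and 102 in PQ, and 46.4 and 50.8 in NAC. Tinagl1, a laminin-binding matrix protein gene, was at 14.6 and 17.8 FPKM in control, 25.1 and 24.9 in PQ, and 3.98 and 6.64 in NAC.

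Of other partners, Sparc fell with NAC alone and Fn1 with both treatments. Sparc, a collagen-binding protein gene, was at 394 and 422 FPKM in control, 401 and 391 in PQ, and 207 and 211 in NAC. Fn1, encoding fibronectin, was at 104 and 118 FPKM in control, 83.5 and 94.2 in PQ, and 54.1 and 62.8 in NAC. Their log2 fold changes with NAC were -1.01 and -0.98 (adjusted p of 1.88e-07 and 1.53e-06, edgeR's quasi-likelihood test). Fbln2 passed with PQ at -0.42 (adjusted p = 0.00983 by the same test). Ntn4, which binds laminin gamma chains, went from 17.5 and 17.0 FPKM in control to 35.9 and 34.6 in NAC.

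Of 32 genes for collagen folding, modification and crosslinking, 24 were tested. With PQ 2 were higher (8.33%) and 1 lower (4.17%), no more than among all genes (9.76 and 9.45%), at a median log2 fold change of 0.00. With NAC none were higher and 8 were lower (33.3%, beside 9.64% of all genes), at a median of -0.21. Serpinh1, the collagen chaperone HSP47, was at 24.9 and 22.9 FPKM in control, 13.9 and 13.1 in PQ, and 15.1 and 16.8 in NAC. It was lower in both treatments, with log2 fold changes of -0.85 and -0.64 (adjusted p of 6.40e-05 and 0.000527, edgeR's quasi-likelihood test). The prolyl hydroxylase gene P4ha2 was at 15.6 and 17.2 FPKM in control, 9.63 and 15.6 in PQ, and 3.19 and 5.58 in NAC. The lysyl hydroxylase gene Plod2 was at 170 and 166 FPKM in control, 167 and 208 in PQ, and 91.2 and 98.9 in NAC. Both fell with NAC (log2 fold changes of -1.96 and -0.87, adjusted p of 4.68e-06 and 8.86e-06 by the same test). Loxl2, a crosslinking oxidase gene, was higher with PQ and lower with NAC (log2 fold changes of 0.46 and -0.88). Adamts14 was lower with NAC (-0.64). The other gene higher with PQ, Colgalt2, was at 0.91 and 0.70 FPKM in control and passed the level only through the treated groups, so its call supports nothing.

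Of 24 genes for matrix proteases and their inhibitors, 20 were tested, with 7 higher (35%, beside 9.76% of all genes) and 2 lower (10.0%, beside 9.45%) in PQ at a median log2 fold change of 0.13. In NAC 8 were higher (40%, beside 9.01%) and 4 lower (20.0%, beside 9.64%), also at 0.13. Adamts1 was at 13.1 and 14.3 FPKM in control, 22.4 and 23.6 in PQ, and 14.4 and 15.8 in NAC. Adamts4 went from 28.6 and 33.5 FPKM in control to 52.0 and 48.4 in PQ and 45.6 and 57.0 in NAC. The inhibitor genes Timp1 and Serpine2 were also higher in both treatments, with log2 fold changes of 0.73 and 0.39 in PQ and of 0.39 and 0.52 in NAC. Timp2 and Mmp15 were higher in NAC, with log2 fold changes of 0.66 and 0.59.

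Of 31 genes for the integrin adhesion machinery inside the cell, 27 were tested, with 2 higher (7.41%) and 3 lower (11.1%) in PQ, about as many as among all genes (9.76 and 9.45%), at a median log2 fold change of 0.05. In NAC 3 were higher (11.1%, beside 9.01% of all genes) and 7 lower (25.9%, beside 9.64%), at a median of 0.01. Parvb, which encodes an actin-binding protein of focal adhesions, was at 49.6 and 53.9 FPKM in control, 79.3 and 69.7 in PQ, and 47.0 and 54.3 in NAC. The focal adhesion kinase gene Ptk2 was lower with PQ (log2 fold change of -0.40) and with NAC (-0.42), and so with PQ were Tns2 (-0.45) and Tln2 (-0.48). With NAC, Actn1 and Actn4, encoding actin crosslinkers, fell by 0.77 and 0.52 on the log2 scale (adjusted p of 4.16e-05 and 0.000285, edgeR's quasi-likelihood test). The tensin genes parted with NAC, Tns2 at a log2 fold change of 0.79 and Tns1 at -0.65.

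The 10 other matrix receptor genes were all tested, with 2 higher and 1 lower in PQ (20.0 and 10.0%, beside 9.76 and 9.45% of all genes) at a median log2 fold change of 0.09. In NAC 2 were higher and 2 lower (20.0% each, beside 9.01 and 9.64%), at a median of -0.12. Dag1, which encodes the laminin receptor dystroglycan, was at 194 and 222 FPKM in control, 204 and 186 in PQ, and 337 and 346 in NAC, a log2 fold change of 0.67 with NAC (adjusted p = 2.95e-05, edgeR's quasi-likelihood test). The collagen receptor genes Ddr1 and Ddr2 parted. Ddr1 was at 61.0 and 72.9 FPKM in control, 82.6 and 72.4 in PQ, and 97.8 and 115 in NAC, whereas Ddr2 was at 21.1 and 16.3 in control, 12.1 and 12.2 in PQ, and 12.1 and 12.5 in NAC. Ddr2 was lower in both treatments, with log2 fold changes of -0.65 and -0.66 (adjusted p of 0.000536 and 0.000351 by the same test). Cd44, the hyaluronan receptor gene, was at 96.8 and 94.0 FPKM in control, 126 and 126 in PQ, and 82.4 and 78.3 in NAC, and passed in both comparisons with control. Sdc1 was higher with PQ (log2 fold change of 0.37, adjusted p = 0.0323 by the same test).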

How the data were processed

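For each library the authors deposited an expected count (estimated, with ambiguous reads divided among genes, so often not whole), an FPKM value and a transcript length in bases, by NCBI gene ID. Genes not listed in a table were taken as 0. The sources conflict: labels name TopHat2, Cufflinks and mm9 for control 1 and PQ 1, and HISAT2, Bowtie2, RSEM and mm10 for the other 4, while all 6 tables have the columns RSEM writes, the same transcript list for each of 17254 genes, and the same length for each of 13490 genes with 1 transcript. Positions and upstream sequences are RefSeq's on GRCm38.p6 (mm10), and 99.7% of the genes matched a symbol. Strand use in counting is not given in the sources used here.

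Rounded expected counts of genes averaging 1 FPKM or more were fitted over all 6 libraries without covariates (edgeR 4.0.16 in R 4.3.3: TMM, glmQLFit, glmQLFTest). P-values were adjusted by Benjamini and Hochberg's method over all genes fitted, and 0.05 was the cutoff. Standard errors were derived from the F statistic. Replicate numbers follow the platform label for control and PQ, and no fit pairs libraries by them but the one with the platform covariate. Values per library are given for the 5 members of highest mean FPKM in each family, for members past the cutoff with an absolute log2 fold change of at least 0.5 in PQ or NAC against control, and from each context list for up to 4 genes of smallest adjusted p in each of these comparisons. Some further cell type markers were added after their values were seen. Members and lists were chosen with earlier results of these data known. Alternatives were DESeq2 1.42.0, its size factors, no filter, platform label as covariate, fitting the compared libraries alone, limma 3.58.1 on log2(FPKM + 1) and log2(FPKM + 0.1), leaving out each library and, added after the data were seen, only the BGISEQ-500 libraries.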

Additional observations from a re-analysis of the deposited data

How the results depend on the processing

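In PQ against control, 13 members passed. Without 1 library the count ranged from 7 (without PQ 1) to 14, and among the BGISEQ-500 libraries, an alternative added after the data were seen, it was 6, with 1 control and 1 PQ library in the fit. In NAC against control the 18 members called were between 15 and 17 without 1 library, and in PQ against NAC, also 18, between 13 and 19. Where a group is left with 1 library, that library is assumed to vary like the other groups. Under the other alternatives the counts were between 11 and 15 for PQ against control and between 15 and 19 for the other comparisons. No fold change of a called named member changed sign in any alternative. Over all named members, called or not, and the 3 comparisons, 964 alternative values kept their side of the threshold, 69 of called ones no longer passed it and 17 of the others newly passed it, and the cause was not tested. With 2 libraries per group and between 9680436 and 10698241 counts per library, a chain near 1 FPKM without a call may still have changed, and the smallest change that could be seen was not measured.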
